A study of Homo sapiens with 9 samples.

Results

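The stress and wound keratins described here are 6 genes, KRT6A, KRT6B, KRT6C, KRT16, KRT17 and KRT75, out of 78894 gene identifiers listed for each library. The family was chosen by name, from differences of its members between knockout and Control cells that had already been seen in these libraries. The differences of the members are therefore given below as a description, without a p-value. All 6 genes were found, and 5 of them passed the filter on low values, which kept 17100 genes with at least 1 TPM in at least 2 distinct libraries. TPM, the deposited unit, is a share of the library per unit of transcript length, so levels of different genes can be set side by side within a library, and the unit keeps no record of sequencing depth.

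The RNA came from CAL27, an established human line grown from a squamous tongue carcinoma, in a study that by its title deals with an enhancer active in this kind of head and neck tumour. Cells edited with CRISPR, in groups named A2ko, A8ko and C9ko, were compared with Control cells of the same line, all grown in DMEM with serum and given no further treatment. Which sequence was edited is left unnamed by the labels for each group, so no targeted gene could be checked, and whether the edited cells were 1 clone or a pool is likewise unnamed. There were 3 Control samples and 2 samples of each knockout, but the pair of A2ko samples was value for value the same, as was the A8ko pair. With each such pair taken once, 7 distinct libraries remained: 3 of Control, 2 of C9ko, 1 of A2ko and 1 of A8ko. A2ko and A8ko values therefore have no replicate, and since nothing in the labels says that the Control or C9ko samples came from separate cultures, their spread may be technical. Every knockout was compared with the same 3 Control libraries.

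Keratins are the intermediate filament proteins of epithelial cells, and each filament is built from pairs of 1 acidic type I and 1 basic type II chain. In stratified epithelia the basal cells carry the type II chain KRT5 with the type I chain KRT14. KRT6A, KRT6B and KRT6C are type II chains and KRT16 and KRT17 type I chains that keratinocytes at a wound edge switch on soon after injury, and that are also present in hair follicles, nail bed, oral mucosa and many squamous carcinomas. Inherited mutations in KRT6A, KRT6B, KRT6C, KRT16 or KRT17 cause forms of pachyonychia congenita or related thickening of the palms and soles. KRT75 is a type II chain of the companion layer of the hair follicle.

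The KRT6 genes are near copies of one another, and their coding sequences are shown because this bears on how far their separate values can be trusted. In GENCODE release 29 on GRCh38, KRT6A, KRT6B and KRT6C each have a coding sequence of 1692 bases, and the coding bases are identical at 97.5% of positions between KRT6A and KRT6B, 97.9% between KRT6A and KRT6C and 98.5% between KRT6B and KRT6C. Of the 1692 positions, 51 differ among the 3 genes: KRT6A stands alone at 26, KRT6B at 16 and KRT6C at 9. The 60 coding bases from position 664 to 723, counted from the first base of the start codon, are the in-frame window within a single exon where the 3 genes differ most, with 9 differing positions. These positions are in capitals in the sequences of that window, which lies on the minus strand of chromosome 12.
KRT6A chr12:52491554-52491613: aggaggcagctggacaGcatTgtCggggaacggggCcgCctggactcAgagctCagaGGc
KRT6B chr12:52450438-52450497: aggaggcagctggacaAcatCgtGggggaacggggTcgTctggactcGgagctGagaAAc
KRT6C chr12:52472098-52472157: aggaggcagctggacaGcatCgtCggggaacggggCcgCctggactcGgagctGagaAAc
KRT6C matches KRT6A at some of these positions and KRT6B at others. Elsewhere the copies are harder to tell apart, and 133 of the 398 in-frame windows of 60 bases hold no difference at all. Of all stretches of 100 bases in the annotated transcripts, 18.2% of those of KRT6A, 24.6% of those of KRT6B and 31.6% of those of KRT6C also occur in another of the 6 genes. How the authors' quantification shared such reads is not given in the sources used here, so the split among KRT6A, KRT6B and KRT6C is uncertain and their sum is given as well.

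The type I members are less alike, and they are shown for contrast. KRT16 and KRT17 are identical at 71.6% of aligned coding positions, and no stretch of 100 bases of KRT16, KRT17 or KRT75 occurs in another member. The next sequences are their most different window, also on the minus strand and here on chromosome 17, with capitals at the 24 of 60 positions where the genes differ.
KRT16 chr17:41612164-41612223: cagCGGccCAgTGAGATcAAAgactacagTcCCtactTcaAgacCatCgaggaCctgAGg
KRT17 chr17:41624084-41624143: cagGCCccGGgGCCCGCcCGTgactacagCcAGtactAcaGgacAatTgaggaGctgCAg
Pseudogene copies of KRT16 and KRT17 could also take reads. Those listed for both together summed to at most 1.31 TPM in any library. How reads shared with them were handled is not given in the sources used here.

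KRT6A, KRT6B, KRT6C and KRT16 were lower than in every Control library in all 4 distinct knockout libraries, KRT6B in C9ko only by little. KRT17, by contrast, was higher in A2ko, lower in A8ko and within the Control range in C9ko. Of the 5 members that passed the filter, 3 were called in C9ko, all of them lower, at a limma adjusted p under 0.05. The background for that count was 29.5% of the 17100 tested genes called, with 22.0% higher and 7.42% lower. A2ko and A8ko, with 1 library each, were not tested, and a gene was counted there if it was above or below all 3 Control libraries and differed from the Control mean by at least 1 log2 unit. By this rule 4 of the 5 were lower and none higher in A2ko, against 1.53% and 3.54% of all tested genes, and 5 of 5 were lower in A8ko, against 2.68%, with 2.05% of all genes higher. KRT6A, KRT6C and KRT16, which are 3 of the 5, were counted lower in all 3 knockouts, against 0.427% of tested genes. Since the same contrasts chose the family, nothing is read from these counts.

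KRT6A (ENSG00000205420, chromosome 12, 52487174 to 52493257, minus strand, protein coding) was the most abundant member in Control cells. Its level was 1426, 1360.0 and 1370.0 TPM in the Control libraries, 246.4 TPM in A2ko, 257.0 TPM in A8ko, and 506.0 and 542.7 TPM in the C9ko libraries. The Control libraries lay close together, A2ko and A8ko were lowest, and both C9ko libraries stood between them and Control without overlap. Against the Control mean of 1385 TPM ± 35.8 (SD, n = 3), A2ko held 17.8%, A8ko 18.5% and C9ko 37.8%. On the log2(TPM + 1) scale on which all differences here were computed, these were differences of -2.49, -2.43 and -1.40, the last with a standard error of 0.07 from the limma fit. In bulk RNA, fewer cells that express a gene and less of its RNA in each cell cannot be told apart.

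KRT6B (ENSG00000185479, chromosome 12, 52446651 to 52452126, minus strand, protein coding) separated the knockouts most clearly among the KRT6 genes. It stood at 46.2, 44.1 and 42.6 TPM in Control, 6.19 TPM in A2ko, 16.7 TPM in A8ko, and 39.2 and 40.7 TPM in C9ko. Both C9ko libraries were below all 3 Control libraries, but by little. A2ko held 13.95% of the Control mean of 44.3 TPM ± 1.81 (SD, n = 3), A8ko 37.6% and C9ko 90.1%. The log2 differences were -2.66, -1.36 and -0.15 (standard error 0.07), and the last was not called. It was called, at -0.27, when libraries were rescaled by the median of gene-wise ratios, and at -0.25 when TPM was recomputed without mitochondrial transcripts. Since the same contrasts chose the family, nothing is read from these calls.

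KRT6C (ENSG00000170465, chromosome 12, 52468516 to 52473785, minus strand, protein coding) was the least abundant KRT6 gene. It was measured at 17.8, 19.4 and 17.8 TPM in Control, 2.87 TPM in A2ko, 4.48 TPM in A8ko, and 7.49 and 8.56 TPM in C9ko. As for KRT6A, every knockout library was below every Control library and C9ko lay in between. The knockouts held 15.6%, 24.4% and 43.7% of the Control mean of 18.4 TPM ± 0.921 (SD, n = 3), with log2 differences of -2.32, -1.82 and -1.10 (standard error 0.09 for C9ko). Because the 3 KRT6 genes share long identical stretches, their sum is the firmer quantity. It was 1491, 1424 and 1431 TPM in Control, 255.5 TPM in A2ko, 278.2 TPM in A8ko, and 552.7 and 591.9 TPM in C9ko, which is 17.6%, 19.2% and 39.5% of the Control mean of 1448 TPM ± 36.8 (SD, n = 3).

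KRT75 (ENSG00000170454, chromosome 12, 52424070 to 52434525, minus strand, protein coding) is the neighbour of the KRT6 genes and was close to absent. Its values were 0.474, 0.262 and 0.417 TPM in Control, 0.5003 TPM in A2ko, 0.223 TPM in A8ko, and 0.471 and 0.743 TPM in C9ko. All of them were below 1 TPM, so the gene failed the filter and its differences were not tested. It overlaps AC055736.1, an antisense gene on the other strand that reached at most 2.44 TPM, and the use of strand in counting is not given in the sources used here, so even these low values may be shared. No other member overlaps an annotated gene.

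KRT16 (ENSG00000186832, chromosome 17, 41609778 to 41615899, minus strand, protein coding), the usual type I partner of the KRT6 chains, ranked the knockouts differently. Its level was 154.2, 160.1 and 175.9 TPM in Control, 61.3 TPM in A2ko, 19.3 TPM in A8ko, and 37.3 and 37.7 TPM in C9ko. No knockout library overlapped Control, A8ko was lowest, and A2ko kept the most, the reverse of its position for KRT6B. A2ko held 37.5% of the Control mean of 163.4 TPM ± 11.2 (SD, n = 3), A8ko 11.8% and C9ko 22.9%. The log2 differences were -1.40, -3.02 and -2.09 (standard error 0.07 for C9ko).

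KRT17 (ENSG00000128422, chromosome 17, 41619441 to 41624842, minus strand, protein coding), a type I chain of basal-like and follicular cells that also takes part in growth control, was below Control in A8ko, as the other tested members were, but not in A2ko or C9ko. It was 1031, 1079 and 1243 TPM in Control, 1749 TPM in A2ko, 489.4 TPM in A8ko, and 1139 and 1049 TPM in C9ko. A2ko was above and A8ko below all Control libraries, and both C9ko libraries lay inside the Control range. A2ko held 156.5% of the Control mean of 1118 TPM ± 111 (SD, n = 3), A8ko 43.8% and C9ko 97.9%. In log2 units the differences were 0.65, -1.18 and -0.03 (standard error 0.10 for C9ko), and the sign of the last turned to 0.05 without the third Control library and to 0.03 without the second C9ko library. The genes for KRT16 and KRT17 are neighbours on chromosome 17, and their sum was 1185, 1239 and 1418 TPM in Control, 1811 TPM in A2ko, 508.7 TPM in A8ko, and 1176 and 1087 TPM in C9ko.

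**Figure D1:**
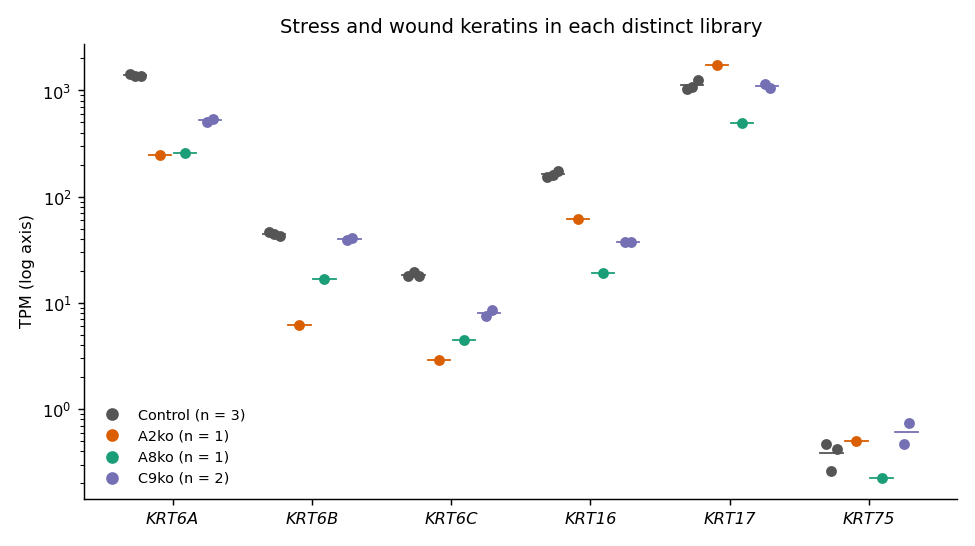
Level of each stress keratin in TPM on a log axis, with the genes along the horizontal axis, 1 point per distinct library, coloured by group, and a short line at each group's mean. KRT6A, KRT6B, KRT6C and KRT16 lie below Control in all knockout libraries, though KRT6B in C9ko is close to Control at 39.2 and 40.7 TPM. KRT17 is on both sides, and KRT75 is below 1 TPM throughout.

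**Figure D2:**
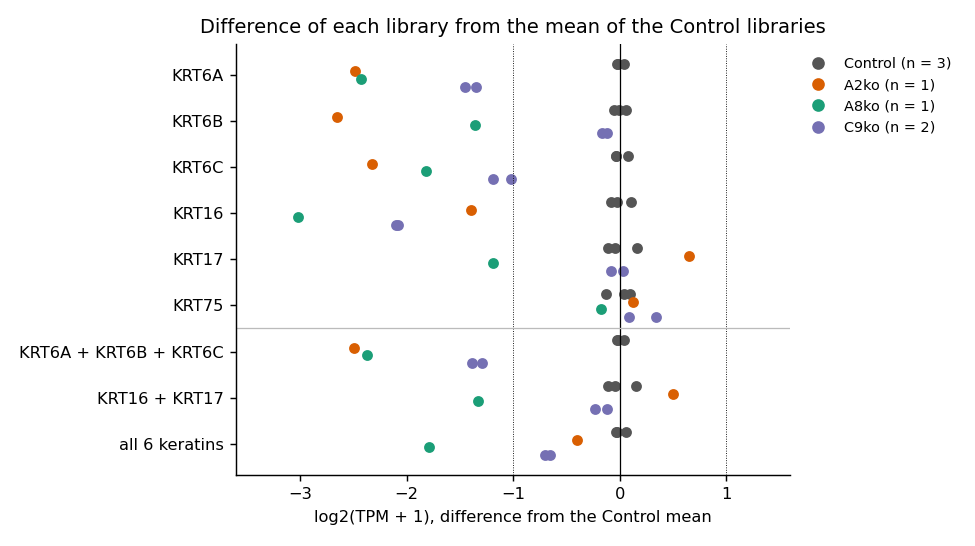
Difference from the Control mean in log2(TPM + 1) for each member and each sum of members, with 1 point per distinct library, including the Control libraries to show their spread, and dotted lines at 1 log2 unit on either side. The KRT6 sum is at -2.50 in A2ko, -2.38 in A8ko and -1.34 on average in C9ko, whereas KRT17 is above Control in A2ko, below it in A8ko and close to it in C9ko.

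All 6 genes together made up 2676, 2663 and 2849 TPM in Control, 2067 TPM in A2ko, 787.1 TPM in A8ko, and 1729.6 and 1679 TPM in C9ko. A2ko thus held 75.7% of the Control mean of 2729.6 TPM ± 104 (SD, n = 3), A8ko 28.8% and C9ko 62.4%. The total hid opposite moves in A2ko, where the KRT6 sum was lowest and KRT17 highest.

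The order of the members changed with the knockout. In all 3 Control libraries it was KRT6A, KRT17, KRT16, KRT6B, KRT6C and KRT75, from high to low, and the ranges of neighbours did not overlap. In A2ko and A8ko KRT17 came before KRT6A, with the rest as in Control. In both C9ko libraries KRT17 also led, and KRT6B at 39.2 and 40.7 TPM stood slightly above KRT16 at 37.3 and 37.7 TPM.

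Within the KRT6 genes, the mix depended on the knockout. KRT6B gave 3.10%, 3.10% and 2.98% of the KRT6 sum in Control, 2.42% in A2ko, 5.9996% in A8ko, and 7.10% and 6.87% in the C9ko libraries. The ratio of KRT6A to KRT6B was 30.8, 30.8 and 32.1 in Control, 39.8 in A2ko, 15.4 in A8ko, and 12.9 and 13.3 in the C9ko libraries. KRT6C stayed a small part of the sum, between 1.12% and 1.61% in every library. These shares depend on how reads common to the copies were divided.

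Between the type I members, KRT17 was higher relative to KRT16 in every knockout library than in any Control library. The ratio of KRT17 to KRT16 was 6.69, 6.74 and 7.07 in Control, 28.5 in A2ko, 25.4 in A8ko, and 30.5 and 27.8 in the C9ko libraries. The knockout libraries were alike in this ratio and far from Control, although KRT17 itself was above Control in A2ko, below it in A8ko and within the Control range in C9ko. The ratio of KRT6A to KRT16, a type II chain against its usual type I partner, went both ways: it was 9.25, 8.50 and 7.79 in Control, 4.02 in A2ko, 13.3 in A8ko, and 13.6 and 14.4 in the C9ko libraries. Over all keratins, the ratio of type II to type I was 1.53, 1.54 and 1.36 in Control, 0.931 in A2ko, 2.34 in A8ko, and 1.96 and 1.98 in the C9ko libraries, so A2ko was below and the others above Control. A ratio within a library is not touched by the scaling of that library.

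**Figure D3:**
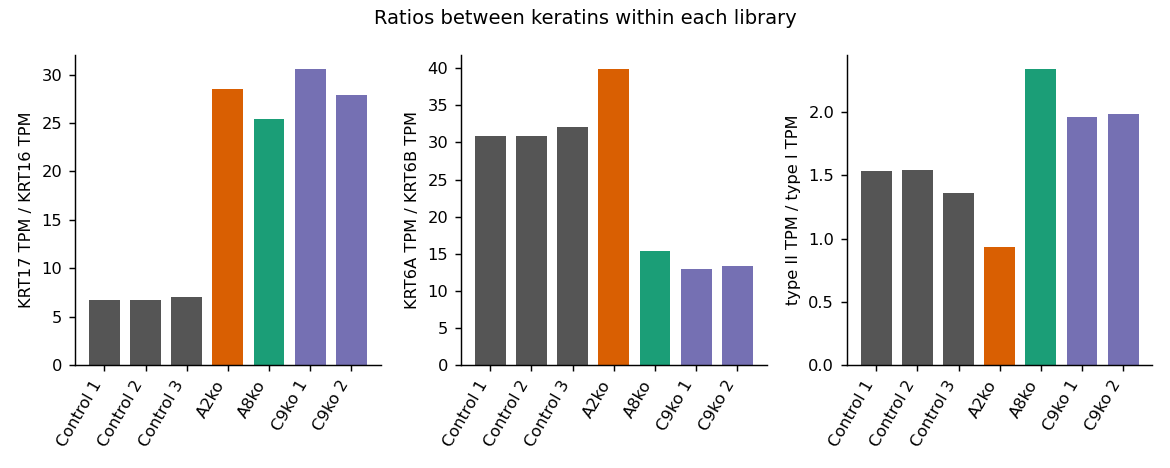
Bars show, for each distinct library, the ratio of KRT17 to KRT16 TPM, of KRT6A to KRT6B TPM, and of summed type II to summed type I keratin TPM, each from 0, coloured by group. KRT17 to KRT16 has a Control mean of 6.83 and lies between 25.4 and 30.5 in the knockouts, while the other ratios are above Control in some knockouts and below it in others.

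As part of all keratins, the 6 genes were 15.1%, 14.6% and 15.1% of the summed TPM of the 55 type I and type II genes in Control, 27.1% in A2ko, 11.03% in A8ko, and 16.9% in each C9ko library. The keratin total itself was lower, at 41.8% of the Control mean in A2ko, 39.03% in A8ko and 55.2% in C9ko. Among type II keratins, the KRT6 sum was 13.9%, 12.8% and 13.2% in Control, 6.94% in A2ko, 5.57% in A8ko, and 8.14% and 8.97% in the C9ko libraries. Its share was thus lower in every knockout library than in any Control library, whereas KRT5, the basal chain that dominates this class, made up between 79.3% and 84.8% of type II in every library. Among type I keratins, KRT17 took 14.7%, 15.02% and 15.6% in Control, 44.2% in A2ko, 22.9% in A8ko, and 32.9% and 31.5% in the C9ko libraries. The share of KRT14, the basal type I chain, was lower in all knockouts, at 50.7%, 52.8% and 53.7% in Control, 7.91% in A2ko, 40.6% in A8ko, and 37.1% and 37.5% in the C9ko libraries.

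**Figure D4:**
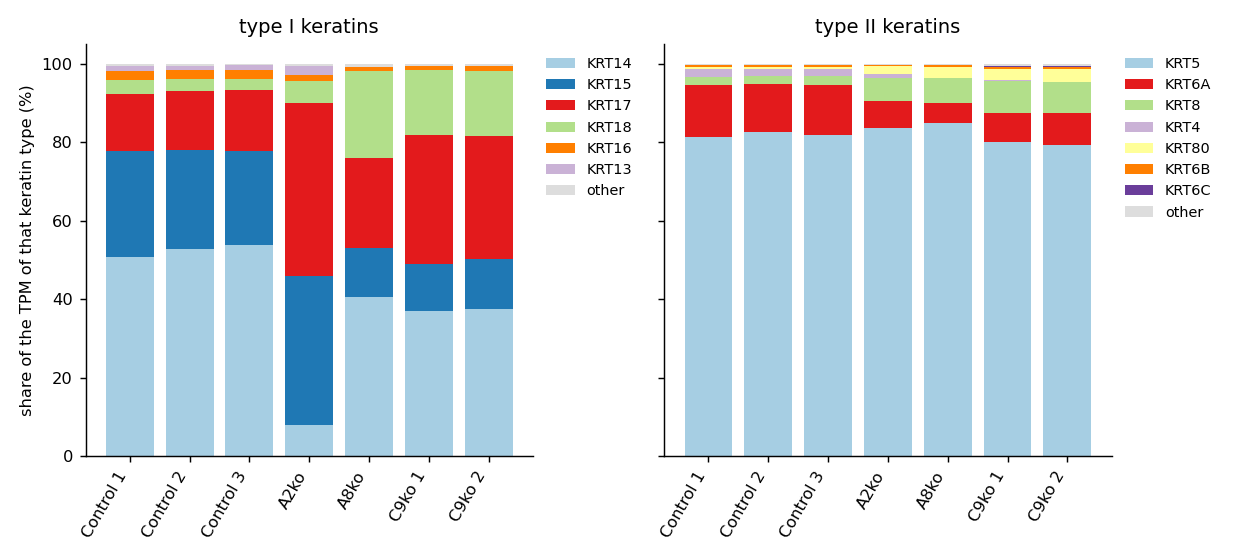
Stacked bars show the share of the summed type I keratin TPM and of the summed type II keratin TPM taken by the named keratins in each distinct library, in percent, with the rest as other. KRT17 reaches 44.2% of type I in A2ko, where KRT14 is at 7.91%, and KRT5 holds 79.3% to 84.8% of type II in every library.

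The other genes of keratin biology were taken from 5 lists written from general knowledge with earlier results of these data known, and each is read against the background of 22.0% of tested genes higher and 7.42% lower in C9ko. Over all tested genes there were 3770 higher and 1268 lower calls, which became 2702 and 2099 after rescaling by the median of ratios, and that rescaling moved the median difference of all genes in C9ko from 0.11 to 0.00. In A2ko and A8ko the medians were 0.12 and 0.09. The differences below are from the limma fit of C9ko against Control on unscaled TPM, adjusted by Benjamini-Hochberg over 17100 genes.

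Of the 24 other keratins, 14 passed the filter, but 2 of these, KRT3 and KRT9, passed through Control alone and so could hardly be other than lower in the knockouts. Of the remaining 12, 4 rose and 8 fell in C9ko, with a median log2 difference of -0.86 against 0.11 for all genes. Over all 14 the medians in A2ko and A8ko were -0.39 and -1.07. The largest falls were in keratins of differentiating layers: KRT4, of the suprabasal oral mucosa, went from 202.3, 197.6 and 197.3 TPM in Control to 1.37 and 0.857 TPM in C9ko (log2 difference -6.58, limma adjusted p = 1.96e-06), with 37.7 TPM in A2ko and 0.106 TPM in A8ko. KRT13, its type I partner, fell by 4.95 on the log2 scale (limma adjusted p = 5.70e-06) and KRT1 of cornifying epidermis by 3.73 (limma adjusted p = 7.32e-06). Unlike KRT4, KRT13 was only a little below Control in A2ko, at 83.1 TPM against a Control mean of 93.6 TPM. It was at 2.23 TPM in A8ko. Among keratins of simple epithelia, KRT7, KRT18 and KRT8 rose in C9ko and KRT19 fell. KRT7 went from 5.80, 6.96 and 6.33 TPM to 35.01 and 30.2 TPM (2.19, limma adjusted p = 3.35e-05). KRT18 rose by 1.29 (limma adjusted p = 6.10e-05) and KRT8 by 1.19 (limma adjusted p = 0.000127). KRT19 fell by 0.56 (limma adjusted p = 0.0193), from a Control mean of only 3.5 TPM. KRT8 and KRT19 were named after their values were seen. KRT80 also rose, by 1.90 (limma adjusted p = 1.77e-05). In A2ko, KRT7 at 4.35 TPM was below Control. The fall of KRT6A in C9ko, at -1.40, was thus smaller than that of KRT4, KRT13 or KRT1. It was also smaller than that of the basal chains KRT14 (-1.61) and KRT15 (-2.17). The falls of KRT5 (-0.74), KRT10 (-0.98) and KRT19 were smaller than that of KRT6A. KRT5, KRT10, KRT14 and KRT15 were set beside KRT6A after their values were seen.

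Keratin filament partners, the plakins, desmosomal proteins and adaptors that anchor or bind keratin filaments, gave 1 rise, 8 falls and 11 uncalled genes among 20 tested of 21 in C9ko. The 9 calls became 5 with no filter on low values and 5 with a replicate block in the fit. PKP1, a desmosomal plaque protein, was lowest against Control, at 159.3, 170.8 and 183.6 TPM in Control and 40.9 and 40.5 TPM in C9ko (-2.04, limma adjusted p = 1.63e-05), with 73.6 TPM in A2ko and 38.7 TPM in A8ko. DSG3, a desmosomal cadherin of basal layers, fell by 1.05 (limma adjusted p = 0.000188) and DSP, which ties keratins to desmosomes, by 0.98 (limma adjusted p = 0.000101). PLEC, which links keratins to hemidesmosomes, was the rise, at 0.33 (limma adjusted p = 0.0120), and this call was lost without either C9ko library (limma adjusted p = 0.0504 without the first and 0.0650 without the second).

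Wound and activation signals, the cytokines, growth factors and receptors that accompany keratinocyte activation, were mostly higher while KRT6A, KRT6C and KRT16 were lower. Of 25 tested genes of 26, of which IL36RN passed the filter through Control alone, 17 rose, 1 fell and 7 were not called in C9ko, with a median log2 difference of 0.69. IL6, an inflammatory cytokine, went from 12.1, 14.1 and 12.9 TPM in Control to 109.7 and 121.5 TPM in C9ko (3.06, limma adjusted p = 7.05e-06), with 17.6 TPM in A2ko and 130.5 TPM in A8ko. TNF rose by 2.41 (limma adjusted p = 3.49e-05) and LIF, a cytokine of the IL6 family, by 1.79 (limma adjusted p = 2.79e-05). The fall was that of IL22RA1, the epithelial receptor chain for IL22, at -0.67 (limma adjusted p = 0.00317); it is named because it was the only one. In A2ko 1 of the 25 genes was counted higher and 1 lower, against 3.54% and 1.53% of all tested genes. In A8ko, where KRT6A was about as low as in A2ko, 6 were higher and none lower, against 2.05% and 2.68%.

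Alarmins and antimicrobial genes, which are raised with these keratins in psoriasis and at wound edges, split. Of 17 tested genes of 21, 11 rose, 3 fell and 3 were not called in C9ko, with a median log2 difference of 1.15. S100A9, a subunit of calprotectin, went from 514.6, 488.2 and 471.6 TPM in Control to 2406 and 2349 TPM in C9ko (2.27, limma adjusted p = 8.92e-06), with 712.5 TPM in A2ko and 870.9 TPM in A8ko. S100A7, the alarmin psoriasin, rose by 2.76 (limma adjusted p = 0.000281) and its near copy S100A7A by 2.38 (limma adjusted p = 4.78e-05); reads common to both cannot be assigned with certainty. SPRR1B, a cornified envelope precursor, moved the way of KRT6A instead, at 220.8, 214.6 and 228.2 TPM in Control, 3.83 TPM in A2ko, 19.8 TPM in A8ko, and 53.9 and 51.7 TPM in C9ko (-2.05, limma adjusted p = 8.30e-06). PI3, the protease inhibitor elafin, fell by 1.97 (limma adjusted p = 4.03e-05). This list therefore did not move as 1 group with the keratins.

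Transcription factors known to act on these keratin genes, among them AP-1, C/EBP, KLF and p63 family members, gave 8 rises, 7 falls and 10 uncalled genes among 25 tested of 27, and after rescaling by the median of ratios 6 rises and 9 falls. Subunits of AP-1, a dimeric factor, moved in both directions in C9ko. FOSL1 went from 77.3, 72.1 and 74.3 TPM in Control to 182.4 and 183.4 TPM in C9ko (1.28, limma adjusted p = 3.33e-05), and JUN rose by 1.13 (limma adjusted p = 0.000229). FOS went from 141.0, 148.8 and 145.8 TPM to 25.6 and 26.3 TPM (-2.44, limma adjusted p = 5.70e-06), and FOSB fell by 1.71 (limma adjusted p = 3.49e-05). CEBPB rose by 0.86 (limma adjusted p = 0.000688) and KLF5 fell by 0.84 (limma adjusted p = 0.000127). In A2ko FOSL1 was lower, at 38.9 TPM, and FOS higher, at 244.2 TPM, than in any Control library.

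**Figure D5:**
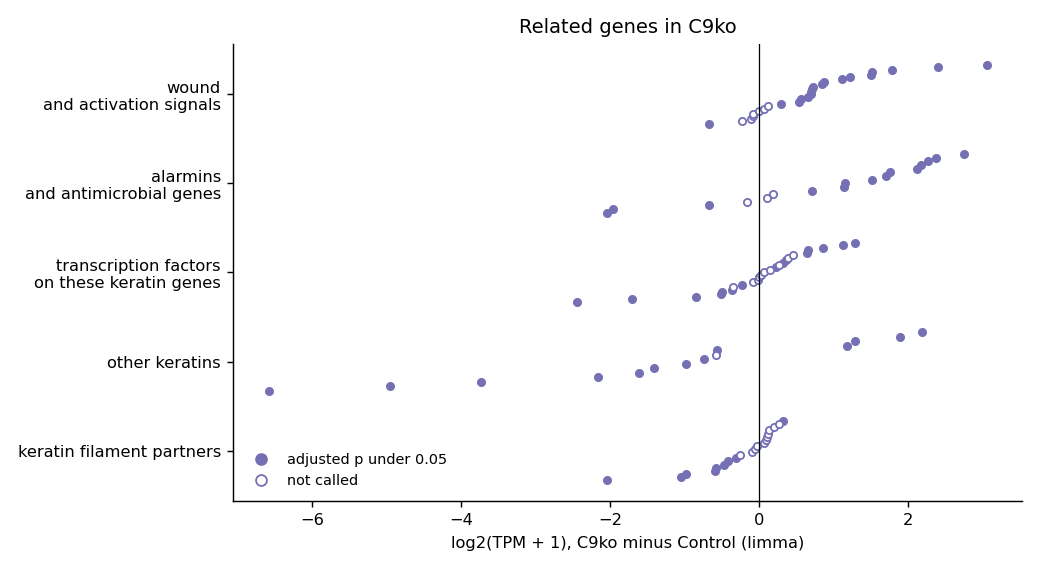
Log2 difference between C9ko and Control from the limma fit for every tested gene of the 5 lists, with 1 point per gene, filled where it was called at an adjusted p under 0.05 and open where not; height within a list only spreads the points. Wound and activation signals lie mostly above 0 (17 called higher, 1 lower) and other keratins mostly below (4 higher, 9 lower, KRT3 among the latter).

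The genes most like a member were taken as those with the smallest root mean square distance between log2 differences from the Control mean over the 4 distinct knockout libraries, among 10747 other genes with a Control mean of at least 5 TPM. Nearest to KRT6A was its copy KRT6C, at a distance of 0.379 log2 units, followed by SPRR2E, a cornified envelope precursor, at 0.473 and GDA, guanine deaminase, at 0.492. Of the stretches of 100 bases in the KRT6C transcript, 17.8% also occur in KRT6A. The part of shared reads in the likeness of KRT6C to KRT6A was not tested. KRT16 ranked 26th from KRT6A, KRT6B 60th and KRT17 2119th. Nearest to KRT16 were AQP3, the water and glycerol channel of keratinocytes, at 0.283, GCNT3, a mucin glycosyltransferase, at 0.318, and UPK3BL1, a uroplakin-like gene with a near-identical copy, at 0.352. Nearest to KRT17 were C1orf226 at 0.0960, and the serine protease inhibitors SERPINB3, which has the near copy SERPINB4, at 0.175 and SERPINB9 at 0.177. KRT6A came 10649th from KRT17, so by this distance it was farther from KRT17 than nearly all other genes. KRT6B, KRT6C and KRT16 came 10581st, 10592nd and 10665th from KRT17. The distance also grows with the size of a gene's own differences, so these ranks do not measure the direction of change alone. Likeness over 4 libraries, of which 2 come from C9ko, is a description.

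All 8 squamous epithelial marker genes were detected in every library. Their summed level was 14133 to 15109 TPM in Control, 4735 TPM in A2ko, 7142 TPM in A8ko, and 8753 to 8857 TPM in C9ko, most of it KRT5 and KRT14, which like KRT6A were below Control in all knockout libraries. DSG3 was also below Control in all knockout libraries. It was at least 34.7 TPM in Control, 21.9 TPM in A2ko, 11.3 TPM in A8ko, and 16.6 and 18.2 TPM in C9ko. The remaining genes of this list were not lower throughout. CDH1, the epithelial cadherin, was 100.3 to 106.3 TPM in Control. It was 138.3 TPM in A2ko, 140.8 TPM in A8ko, and 170.2 and 177.0 TPM in C9ko. The integrin ITGB4 was also above Control in all knockout libraries, and SFN, TP63 and ITGA6 were above it in both C9ko libraries and below it in A2ko. Fibroblast markers, with COL3A1 at 0 throughout, summed to between 7.36 and 17.7 TPM. The 5 leukocyte markers summed to 14.6 to 18.2 TPM in Control and 51.1 to 52.8 TPM in C9ko, almost all of it CD14, with PTPRC, which defines leukocytes, at no more than 0.023 TPM. Endothelial markers summed to 3.51 to 4.55 TPM in Control and 22.2 to 30.1 TPM in C9ko, mostly CDH5, with PECAM1 at no more than 0.295 TPM, and melanocyte markers to at most 4.38 TPM. Mitochondrial transcripts made up 23.1% to 26.9% of the Control libraries, 25.2% of A2ko, 20.6% of A8ko, and 20.2% and 17.9% of C9ko. The part of these markers and shares in the keratin differences was not tested, apart from the rescaling without mitochondrial transcripts.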

How the data were processed

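PolyA RNA from CAL27 was sequenced from dUTP libraries made with 2 ug of total RNA, per the labels' protocols. The authors deposited 1 TPM value per Ensembl gene for each sample, on genome build hg38 per the submitters' processing notes; the aligner, quantifier, annotation and use of strand are not given in the sources used here. TPM keeps no depth, so no counting interval is given. Identical files were counted once.

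Values were analysed as log2(TPM + 1), with a pseudocount of 1, which understates the change of low genes. Genes with at least 1 TPM in at least 2 distinct libraries were kept. C9ko was compared with Control by limma 3.58.1 in R 4.3.3 (1 mean per group over all 7 libraries, eBayes with trend, Benjamini-Hochberg adjustment), and genes were called at an adjusted p under 0.05. A2ko and A8ko had 1 library each and were not tested. The fit was tested on data with known answers. Symbols matched 61463 of 78894 identifiers; positions and sequences are from GENCODE release 29 on GRCh38.

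The members and lists were chosen with earlier results of these data known. Named genes were all members, up to 3 called rises and 3 called falls per list in C9ko (largest differences, both C9ko libraries beyond all Control libraries, at least 5 TPM in the higher group), and the 3 genes most like KRT6A, KRT16 and KRT17. IL22RA1, KRT3, KRT8, KRT9, KRT19 and IL36RN were added after their values were seen. The same holds for the comparison of KRT6A with KRT5, KRT10, KRT14 and KRT15. Alternatives were another pseudocount, filters, 2 rescalings, a replicate block, a fit of C9ko and Control only, eBayes without trend, leaving out each library, and, chosen after seeing the data, list counts without genes that passed the filter through Control alone or the knockouts alone. Replicate numbers did not pair Control with C9ko libraries. Promoter motifs and protein sequences were not analysed here.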

Additional observations from a re-analysis of the deposited data

Results flagged for a closer look

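KRT17 lay above all Control libraries in A2ko and below all of them in A8ko, with log2 differences of 0.65 and -1.18, so the knockouts were 1.84 log2 units apart, while C9ko was at -0.03. The sum of KRT16 and KRT17, most of it KRT17 in every library, was at 0.50 in A2ko and -1.33 in A8ko, a gap of 1.83. In C9ko the sum was at -0.18, with both libraries below all Control libraries, unlike KRT17 alone. FOSL1 was lower than Control in A2ko (-0.92) and higher in A8ko (1.77) and C9ko (1.28), a gap of 2.69 between A2ko and A8ko. FOS was higher in A2ko (0.75) and lower in A8ko (-1.28) and C9ko (-2.44), a gap of 3.19 between A2ko and C9ko. KRT7 was lower in A2ko (-0.46) and higher in A8ko (1.11) and C9ko (2.19), a gap of 2.65 between A2ko and C9ko. Each stood out because the libraries of one knockout lay wholly above and those of another wholly below Control. None of these differences between knockouts was tested; A2ko and A8ko had 1 library each, and all knockouts share their Control libraries.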

How the results depend on the processing

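Of 126 alternative values for single members, 91 moved by less than the Control spread, 32 by more and 3 changed sign. The 3 were KRT17 in C9ko, at 0.051 with a replicate block and between -0.087 and 0.051 when 1 library was left out (0.051 without the third Control library, 0.032 without the second C9ko library). The block, fitted although the numbers did not pair the samples (correlation of deviations -0.0529 and -0.0124), called 3246 genes in C9ko against 5038. Leaving out 1 library gave 3301 to 4174 calls, with 3301 without the second C9ko library. At an unadjusted p under 0.05 there were 7108 genes. Only 3511 were called with no filter on low values.

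Called keratin filament partners went from 9 to 5 with no filter and to 5 with the block. A pseudocount of 0.1 raised the count for A2ko from 867 to 1813, for A8ko from 809 to 1689 and for the same direction in all 3 knockouts from 99 to 230, and a minimum mean of 5 TPM gave 380, 412 and 59. For all 6 keratins summed, rescaling by the median of ratios gave -0.57 in A2ko, -1.88 in A8ko and -0.80 in C9ko, against -0.40, -1.79 and -0.68, and leaving out mitochondrial transcripts gave -1.86 in A8ko and -0.78 in C9ko. The share of higher calls in C9ko was 74.8%, and 56.3% and 60.7% under these rescalings. The cause of these changes was not tested. A2ko and A8ko have no replicate, and the unknown depth limits low genes such as KRT75.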

Other observations

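Outside the 6 genes, keratins of the chromosome 12 cluster, where the type II genes and the type I gene KRT18 lie, and of the chromosome 17 cluster, which holds the other type I genes, were counted in C9ko by the limma fit. Leaving out genes that reached 1 TPM in Control alone or in the knockouts alone, 4 of 7 tested genes on chromosome 12 rose and 3 fell, and on chromosome 17 none of 5 rose and 5 fell, against 22.0% of all tested genes higher and 7.42% lower. These are the same 12 genes as in the list of other keratins above, here split by chromosome, and not a further set. Among the genes left out were the hair keratins of chromosome 12, which passed the filter through A8ko and C9ko alone: KRT86 was at 0.761, 0.412 and 0.677 TPM in Control, 0.508 TPM in A2ko, 2.05 TPM in A8ko, and 7.13 and 7.29 TPM in C9ko, and KRT81 was at 0.172, 0.371 and 0.231 TPM in Control, 0.459 TPM in A2ko, 1.603 TPM in A8ko, and 4.87 and 5.31 TPM in C9ko. Both C9ko libraries were above all Control libraries for each of these genes, which are close copies of each other, so that reads common to both may be shared. The annotated KRT86 gene also spans KRT81, on the other strand, and overlaps the end of KRT7, on the same strand. Reads may be shared there too, as the use of strand in counting is not given. On chromosome 17, KRT15, a basal type I chain, fell, from 1887, 1803 and 1925 TPM in Control to 411.7 and 419.4 TPM in C9ko, with 1497 TPM in A2ko and 265.6 TPM in A8ko. KRT86, KRT81 and KRT15 were picked here after their values were seen, and no test compared the clusters.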
